A study of Homo sapiens with 14 samples.

Results

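The mitochondrial ribosomal protein genes were taken as every row of the count table whose gene name was MRPL or MRPS followed by a number and, in some cases, a letter A, B or C. The rule found 78 of 62703 genes, 49 named MRPL and 29 named MRPS. By the place of the protein, 51 belong to the large and 27 to the small subunit, since MRPS18A and MRPS30 sit in the large one, and MRPS36 is counted here with its name although it is now known as KGD4, a subunit of a dehydrogenase. The study asked how prostate cancer cells that are sensitive or resistant to enzalutamide, a blocker of androgen signalling, respond to inhibition of CDK8 and CDK19, the kinases of the Mediator complex. LNCaP cells (sensitive), 22Rv1 cells (resistant) and PC3 cells (growing without androgen) were kept for 3 days with SEL120-34A at 1.5 µM or with its vehicle, dimethyl sulfoxide (DMSO). LNCaP and 22Rv1 each had 3 libraries of SEL120-34A and 3 of DMSO, and PC3 had 1 of each. All 3 are established human lines without an engineered allele, and 1 line stands for each kind of cell. The study's methods describe replicates in general as biological, and the labels do not say whether these libraries came from separate cultures, so p-values measure the spread between these libraries, which may be technical.

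The mitochondrial ribosome makes the proteins encoded by mitochondrial DNA, all of them subunits of the respiratory chain and the ATP synthase. Its RNAs are transcribed inside the organelle, from MT-RNR1 and MT-RNR2, whereas every one of its proteins is encoded in the nucleus, translated in the cytosol and imported. The large subunit joins amino acids and the small subunit reads the messenger RNA, and many of the proteins have counterparts in the bacterial ribosome while others are found only in mitochondria. Promoters of such nuclear genes often carry sites for NRF1, ETS factors such as GABP, and YY1.

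Promoter windows of 4 members are shown. MRPL34 and MRPS23 are the 2 members called higher after the inhibitor, both in 22Rv1 only. MRPL30 and MRPL20 are 2 of the members with large differences between the lines. They are RefSeq sequences on GRCh38.p14, from 250 bases before to 50 bases after the annotated start. Capitals mark matches on either strand to 1 of 4 short strings. The string searched for NRF1 was GCGCNTGCG, with N for any base. For ETS factors it was CCGGAAG, and for YY1 it was AAGATGGC. For the CCAAT box the letters searched were ATTGG. No match overlapped another in these 4 windows. The windows are chr19:17292323-17292622 on the plus strand for MRPL34, chr17:57849995-57850294 on the minus strand for MRPS23, chr2:99180934-99181233 on the plus strand for MRPL30 and chr1:1407244-1407543 on the minus strand for MRPL20.
MRPL34: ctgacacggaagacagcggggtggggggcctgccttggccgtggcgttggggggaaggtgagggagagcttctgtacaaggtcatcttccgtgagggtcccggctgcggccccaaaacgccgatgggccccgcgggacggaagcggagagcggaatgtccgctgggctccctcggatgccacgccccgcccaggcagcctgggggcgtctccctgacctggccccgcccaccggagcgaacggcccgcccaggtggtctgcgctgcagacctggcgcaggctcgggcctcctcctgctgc
MRPS23: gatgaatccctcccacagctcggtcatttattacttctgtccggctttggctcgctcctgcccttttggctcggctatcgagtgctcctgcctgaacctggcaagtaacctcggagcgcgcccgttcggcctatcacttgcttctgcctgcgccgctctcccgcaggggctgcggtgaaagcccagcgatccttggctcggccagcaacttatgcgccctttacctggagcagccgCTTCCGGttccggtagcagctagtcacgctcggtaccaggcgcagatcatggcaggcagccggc
MRPL30: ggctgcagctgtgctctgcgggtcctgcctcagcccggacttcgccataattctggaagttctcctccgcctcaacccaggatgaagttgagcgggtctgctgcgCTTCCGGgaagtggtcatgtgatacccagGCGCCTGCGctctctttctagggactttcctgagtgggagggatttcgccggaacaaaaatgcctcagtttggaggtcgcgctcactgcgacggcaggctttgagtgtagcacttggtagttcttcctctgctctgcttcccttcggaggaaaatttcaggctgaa
MRPL20: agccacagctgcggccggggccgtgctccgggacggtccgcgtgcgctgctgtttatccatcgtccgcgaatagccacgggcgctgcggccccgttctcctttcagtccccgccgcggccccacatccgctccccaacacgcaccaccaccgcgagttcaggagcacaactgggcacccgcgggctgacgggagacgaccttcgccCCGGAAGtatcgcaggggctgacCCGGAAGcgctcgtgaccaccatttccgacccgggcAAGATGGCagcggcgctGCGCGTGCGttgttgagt
MRPL34 held none of the 4 strings, MRPS23 held 1 ETS string, MRPL30 held 1 ETS and 1 NRF1 string, and MRPL20 held 2 ETS strings, 1 YY1 and 1 NRF1 string. The windows of MRPL40 and MRPL57, with larger differences between the lines than MRPL20, held 1 string each and are not shown. Among members lower in LNCaP, the windows of MRPL24 and MRPL9 held 0 strings. Those of MRPL43, MRPL53 and MRPS18B, also lower in LNCaP, held 2, 2 and 1, and none of these windows is shown. A window was found for 69 of the 78 members. The missing entries were MRPL2, MRPL10, MRPL13, MRPL15, MRPL21, MRPL23, MRPL35, MRPS28 and MRPS36. The YY1 string occurred in 29.0% of the 69 windows, against 3.00% of 27305 windows of all genes and 6.65% of the windows of 5611 genes expressed highly enough to be tested. The ETS string occurred in 40.6% of them, against 10.6% and 21.8%. The NRF1 string occurred in 13%, against 7.78% and 17.4%, and the CCAAT string in 31.9%, against 35.6% and 37.7%. Such matches describe the letters and not binding.

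Levels are given in CPM, each library's counts divided by its total and put on a common scale with trimmed-mean (TMM) factors, and since each transcript is counted at its 3′ end they were not divided by gene length. Total counts were 246063 to 909176 per library, and in 22Rv1 every treated library was shallower than every control. A count of 0 allowed up to 3.27 CPM in the deepest and 12.9 CPM in the shallowest library, taking 3 counts as the floor, and such floors and all binomial intervals cover counting error only. LNCaP and PC3 matched their labels more clearly than 22Rv1. KLK3, the gene of prostate-specific antigen, was at 1039 to 1369 CPM in LNCaP DMSO. It was at 13.7 to 31.8 CPM in 22Rv1 DMSO and 7.62 CPM in PC3 DMSO. The prostate genes KLK2 and HOXB13 were at 26.2 to 35.3 and 177 to 195 CPM in 22Rv1 DMSO, above PC3 DMSO (7.62 and 55.5 CPM). TMPRSS2, another, went the other way, at 3.58 to 11.2 CPM in 22Rv1 DMSO and 20.7 CPM in PC3 DMSO. VIM, a filament gene of mesenchymal cells, was at 1262 CPM in PC3 DMSO and at most 47.5 CPM in the other controls. Of the genes looked at for other cell types, PTPRC, a leukocyte gene, had 0 counts in all 14 libraries. PECAM1, an endothelial gene, had at most 4 counts in any library. COL1A1, a fibroblast gene, was at 92.5 CPM in PC3 DMSO, against at most 18.3 CPM in LNCaP DMSO and 2.385 CPM in 22Rv1 DMSO.

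Nearly all members were transcribed in all 3 lines. Of the 78, 75 had counts, and 70 passed the low-count filter that kept 7086 genes in LNCaP and 22Rv1. Their mean level over the 12 libraries of these lines ran from 17.7 to 687 CPM with a median of 119, against a median of 47.1 for all tested genes. MRPL51 and MRPL37, proteins of the large subunit found only in mitochondria, MRPL20 and MRPL47, with bacterial counterparts in the large subunit, and MRPS34, of the small subunit, had the highest levels. MRPL51 was at 661, 634 and 594 CPM in LNCaP DMSO, at 734, 681 and 736 CPM in 22Rv1 DMSO and at 364 CPM in PC3 DMSO. The lowest of the tested members were MRPL22, MRPS17, MRPS31, MRPS14 and MRPL53, and MRPL22 had 140 counts in all 14 libraries together. Across the 70 members, the log2 level in LNCaP DMSO correlated with that in 22Rv1 DMSO (r = 0.84) and in PC3 DMSO (r = 0.77). These are correlations over genes that share libraries, and over all tested genes r was 0.70 and 0.72, on log2 of the level plus 1 CPM.

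The 8 members that did not pass the filter were MRPL2, MRPL46, MRPS5, MRPS10, MRPS18C, MRPS24, MRPS25 and MRPS28, with 0 to 174 counts over 14 libraries. MRPL46, MRPS5 and MRPS24 had 0 counts in every library. In the annotation, 95.4%, 95.6% and 100% of the last 500 exonic bases of these 3 genes lie inside exons of another gene on the same strand. The rows of those other genes also had 0 counts. At least 50% of the 3′ end was shared in this way for 5 of the 8 untested members and for 3 of the 70 tested ones. How the counting treated reads that fall in more than 1 gene is not given in the sources used here, and its part in these zeros was not tested. The 3 paralogs of MRPS18 stood at different levels. MRPS18B, of the small subunit, was at 90.2, 57.6 and 60.1 CPM in LNCaP DMSO, MRPS18A, of the large subunit, at 57.8, 62.8 and 71.3 CPM, and MRPS18C, of the small subunit, at 4.23, 7.85 and 2.80 CPM. MRPS18C was thus at or below the floor of 3 counts in these libraries. MRPL12, which binds the mitochondrial RNA polymerase besides its place in the large subunit, was at 138, 168 and 137 CPM in LNCaP DMSO and 155, 124 and 155 CPM in 22Rv1 DMSO, ranges that overlap.

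To see whether the inhibitor changed these genes in LNCaP, the treatment arms were set against each other over all 7086 genes, with the quasi-likelihood test of edgeR. No member passed the threshold (0.05 on the adjusted p), against 2.77% of all genes, 1.99% higher and 0.776% lower. At an unadjusted p under 0.05 there were 6 members, 3 higher and 3 lower (4.29% each, against 7.86% and 5.63% of all genes), and neither DESeq2 nor limma-trend called any. The small fitted changes leaned downward: 50 of the 70 were negative (all genes split about evenly, with 50.1% positive), and the median log2 fold change was -0.15 (0.00 for all genes). For 20 members, 28.6%, all 3 treated libraries lay below all 3 controls, against 10.7% of all genes, and for 3 they lay above, against 8.76%. Members have more counts than the median gene, so small shifts can separate their arms more often. They also share the same libraries and scaling, so these members are not independent of each other. The median stayed negative in every alternative and was -0.15 with mitochondrial genes removed, -0.19 at equal depth and -0.23 with library totals, where the median of all genes was -0.08. In bulk libraries, fewer cells of a type and less RNA per cell cannot be told apart.

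MRPL34 (ENSG00000130312.7, chromosome 19, 17292609 to 17306843, plus strand, GRCh38), whose bacterial counterpart is the L34 protein of the large subunit, had the smallest adjusted p in LNCaP. It was at 190.2, 215 and 178 CPM in the controls and 234, 293 and 253 CPM after SEL120-34A. All treated libraries were above all controls, and the log2 fold change was 0.47 ± 0.15 (SE, edgeR adjusted p 0.0992, range over alternatives 0.0424 to 0.563). MRPL33, another protein of the large subunit with a bacterial counterpart, had the largest fitted rise among members with at least 20 counts on average. Its levels were 83.1, 91.6 and 82.5 CPM in controls and 144, 106 and 133 CPM in treated cells, again without overlap (0.60 ± 0.22 SE, edgeR adjusted p 0.146). Its annotated span overlaps that of BABAM2 on the same strand, though none of its last 500 exonic bases lies inside exons of another gene on that strand. How reads from the overlapping stretch were counted was not tested. MRPL13 (0.53), MRPL41 (0.29) and MRPL55 (0.21) followed on the log2 scale.

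MRPL54, a mitochondria-specific protein of the large subunit, had the lowest fitted value among members of that depth. It was at 91.6, 75.9 and 64.3 CPM in LNCaP controls and at 31.2, 48.8 and 63.4 CPM after SEL120-34A, so that the highest treated library was just under the lowest control (-0.59 ± 0.27 SE, edgeR adjusted p 0.297). MRPS18B (-0.39), MRPL28 (-0.38), MRPL35 (-0.38) and MRPL39 (-0.36) came next, and none passed the threshold. MRPS31, of the small subunit, is among the lowest expressed members, with 10 to 25 counts per control and 5 or 6 per treated library. Its level was 35.2, 26.2 and 33.6 CPM in controls and 19.5, 13.6 and 12.7 CPM in treated cells (-1.11 ± 0.41 SE, edgeR adjusted p 0.137). These counts are small, and the 95% interval of the log2 fold change ran from -1.94 to -0.27. For 64 of the 70 members the 95% interval in LNCaP lay within -1 and 1.

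**Figure D1:**
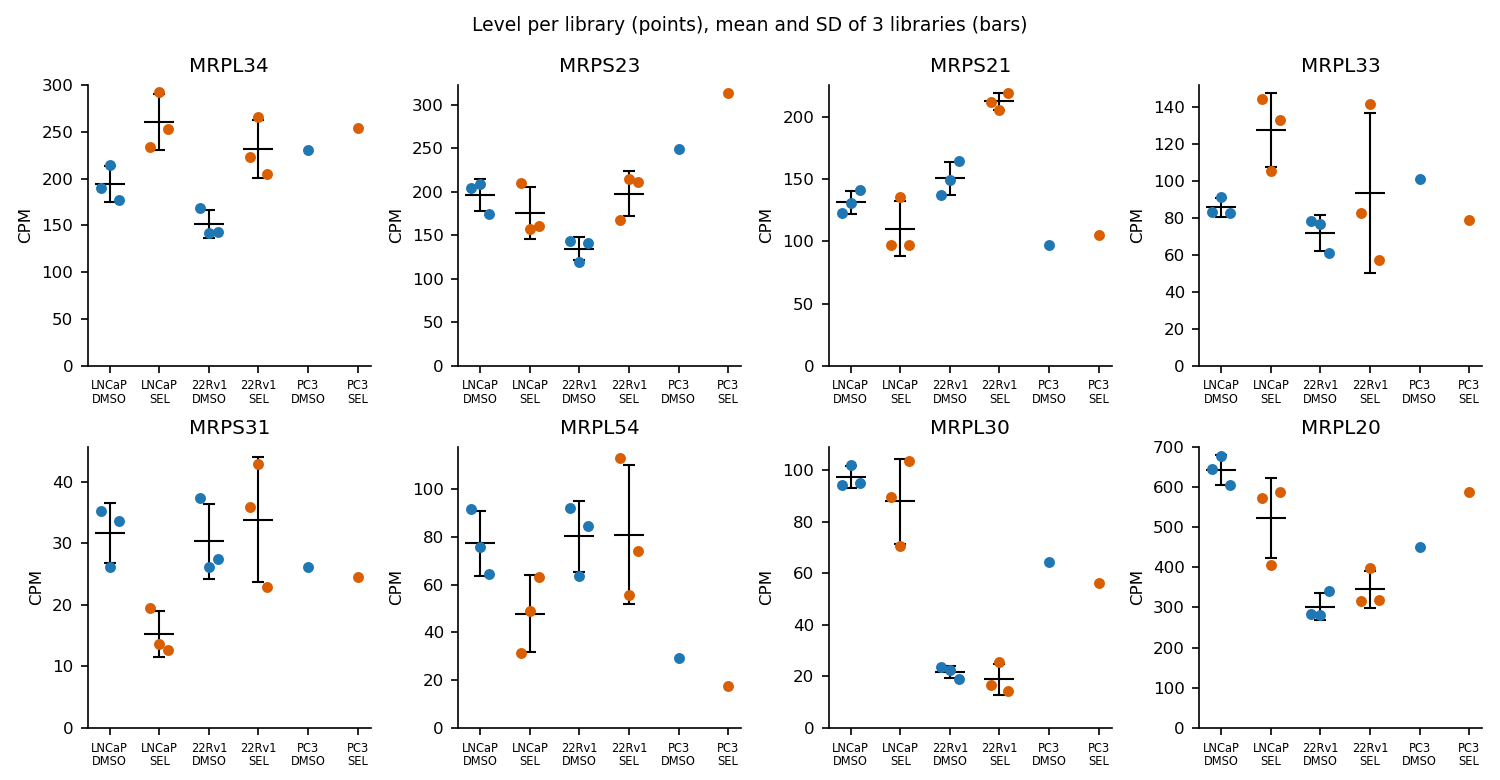
Level in CPM (vertical axis) of 8 members in each library, by line and treatment, with DMSO in blue and SEL120-34A in orange. Points are libraries and black bars are the mean and SD of 3 libraries, and PC3 has 1 library per arm. MRPL34 is above all controls after SEL120-34A in both LNCaP and 22Rv1, MRPS23 and MRPS21 are so in 22Rv1, and MRPL30 and MRPL20 separate the 2 lines.

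In 22Rv1, 2 members passed the threshold and both rose, 2.86% of the 70, against 4.15% of all genes called higher. None was called lower, against 1.55% of all genes. DESeq2 and limma-trend each called 1 higher and 0 lower. At an unadjusted p under 0.05 there were 7 higher, or 10% against 11.1% of all genes, and 0 lower, against 7.99%. The median log2 fold change was 0.14 and 49 of 70 members were positive, but with library totals (median of all genes -0.14) the members' median was -0.01 and 35 were positive. Relative to the median of all genes, the members' median was 0.14 with TMM and 0.13 with library totals. Without 22Rv1 DMSO replicate 2 the median was 0.07. Treated libraries lay above all controls for 11 members, 15.7%, against 12.4% of all genes, and below for 4, 5.71%, against 10.5%.

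MRPL34 was at 169, 142 and 143 CPM in 22Rv1 controls and at 223, 266 and 205 CPM after SEL120-34A. All treated libraries were above all controls, and it rose by 0.62 on the log2 scale (SE 0.16, edgeR adjusted p 0.0173). The call was kept in 16 of 23 alternatives (adjusted p 0.0121 to 0.128) and lost without 22Rv1 DMSO replicate 2 (0.0638) or 3 (0.0970) and without 22Rv1 SEL120-34A replicate 1 (0.0572) or 2 (0.127). MRPS23 (ENSG00000181610.13, chromosome 17, 57834781 to 57850056, minus strand), a protein of the small subunit without a bacterial counterpart, was at 143, 119.8 and 141 CPM in controls and 168, 215 and 211 CPM in treated libraries. Again no treated library overlapped a control, and MRPS23 rose by 0.55 (SE 0.17, edgeR adjusted p 0.0464). Its call is at the edge of the threshold: it was kept in 4 of 23 alternatives (adjusted p 0.0413 to 0.277), and when 1 of the 12 libraries was left out at a time it held only without LNCaP SEL120-34A replicate 3 and without 22Rv1 SEL120-34A replicate 1.

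MRPS21, the counterpart of bacterial S21 in the small subunit, stood just outside the threshold. Its 3 treated libraries of 22Rv1 were close together, at 212, 206 and 219.6 CPM, above controls at 137, 149.7 and 165 CPM (0.50 ± 0.16 SE, edgeR adjusted p 0.0594). Its name is shared by 8 annotated pseudogenes, so reads could be divided among copies. With the mean of at least 20 counts that the naming rule asked for, MRPL53 (0.58) and MRPL49 (0.52) were the other large fitted rises. The lowest fitted values were those of MRPS30 (-0.41), MRPS9 (-0.39), MRPS22 (-0.34), MRPS15 (-0.34) and MRPL44 (-0.29), none past the threshold. For 63 of 70 members the 95% interval in 22Rv1 lay within -1 and 1.

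The effects in the 2 lines were set against each other by testing their difference (LNCaP minus 22Rv1) in the same model. No member differed past the threshold with edgeR, DESeq2 or limma-trend, against 0.734% of all genes, and 7 had an unadjusted p under 0.05, all with the lower effect in LNCaP. These 7 were 10% of the members, against 6.08% of all genes with a lower and 5.36% with a higher effect in LNCaP. The median of the differences was -0.24, against -0.02 for all genes, 17 of 70 members were positive (24.3%, against 48.7% of all genes), and it was -0.15 without 22Rv1 DMSO replicate 2. The most frequent pattern, in 35 members, was a negative fitted value in LNCaP and a positive one in 22Rv1. A further 14 were positive in both, 15 negative in both and 6 positive in LNCaP and negative in 22Rv1. With 50 of 70 negative in LNCaP and 49 positive in 22Rv1, the first pattern would lead even if the lines were unrelated. Shares of all genes with these patterns were not counted. These signs depend on the scaling in both lines, since library totals left 11 members positive in LNCaP and 35 in 22Rv1. Over the 70 members the 2 effects correlated at r = 0.22, against 0.13 over all tested genes. The largest difference among the 7 was in MRPS14, the counterpart of bacterial S14. It was at 32.4, 34.0 and 37.8 CPM in LNCaP controls and 19.5, 24.4 and 25.3 CPM in treated cells, and at 17.7, 22.5 and 21.5 CPM in 22Rv1 controls and 44.1, 47.2 and 22.8 CPM in treated cells. The arms did not overlap in either line, but MRPS14 had only 5 to 27 counts per library, and the difference was -1.38 ± 0.50 (SE, edgeR adjusted p 0.234). MRPS21 (-0.73), MRPS23 (-0.69), MRPS31 (-1.26), MRPL20 (-0.45) and, named here after their values were seen, MRPL36 (-0.68) and MRPS12 (-0.61) were the others. For 48 of 70 members the interval of the difference lay within -1 and 1, so for the remaining members a difference of 2-fold or more was not excluded.

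**Figure D2:**
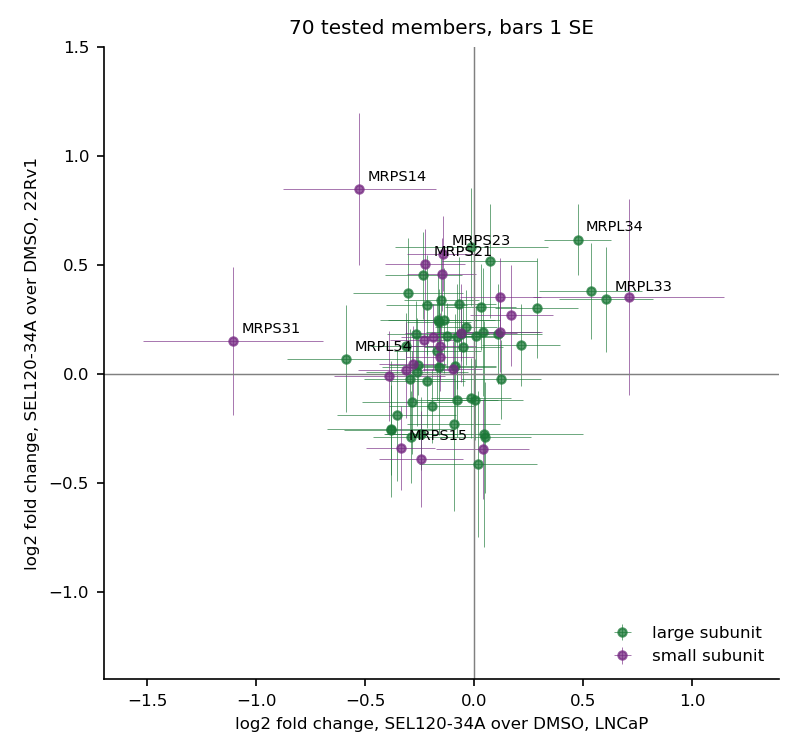
Fitted log2 fold change after SEL120-34A in LNCaP (horizontal axis) and 22Rv1 (vertical axis) for the 70 tested members, with bars of 1 SE, the large subunit in green and the small in purple. Of the 70 points, 50 are negative in LNCaP and 49 positive in 22Rv1, and 35 are both and lie in the upper left. MRPL34 stands to the upper right.

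The medians of the 2 subunits lay close together in each line. In LNCaP the median log2 fold change was -0.10 over 49 members of the large subunit and -0.16 over 21 of the small one. In 22Rv1 it was 0.13 and 0.16. Split further by whether the protein has a bacterial counterpart, the medians in LNCaP were -0.16 (large subunit, 28 members) and -0.19 (small subunit, 11) for those with a counterpart, and -0.05 (20) and -0.16 (9) for those without. These medians are descriptions and were not tested against each other.

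More members were called between the lines than with treatment, which was also true of all genes. Between LNCaP DMSO and 22Rv1 DMSO, 36 members passed the threshold, 27 higher in LNCaP (38.6% of the 70, against 24.0% of all genes) and 9 lower (12.9%, against 25.0%). The median log2 difference was 0.28, against -0.03 for all genes. With library totals the split was 20 higher and 16 lower and the median 0.07, and the median of all genes moved to -0.24. This contrast shares its control libraries with both treatment contrasts. In the large subunit 20 of 49 tested members were higher and 5 lower, and in the small subunit 7 of 21 were higher and 4 lower.

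MRPL30 (ENSG00000185414.20, chromosome 2, 99181152 to 99199561, plus strand), a large-subunit protein with a bacterial counterpart, had the largest difference. It was at 94.4, 102 and 95.1 CPM in LNCaP DMSO and 23.6, 22.5 and 19.1 CPM in 22Rv1 DMSO. The libraries of each line were close together and far from those of the other (log2 difference 2.17 ± 0.26 SE, edgeR adjusted p 1.08e-09), and PC3 DMSO, at 64.2 CPM, lay between them. A pair of annotated protein-coding genes on the same strand overlaps MRPL30, though neither covers its 3′ end. MRPL40 (ENSG00000185608.9, chromosome 22, 19432545 to 19436075, plus strand), found only in mitochondria, was at 183, 215 and 180.4 CPM against 74.6, 73.0 and 83.5 CPM (1.30 ± 0.18 SE, edgeR adjusted p 7.67e-08). MRPL57, also without a bacterial counterpart, was at 292, 278 and 275 CPM against 122, 118 and 132 CPM (1.18 ± 0.15 SE, edgeR adjusted p 7.62e-09). Neither gene's libraries overlapped between the lines.

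MRPL23 and MRPL20, both with bacterial counterparts, were also higher in LNCaP. MRPL23 was at 138, 215 and 147 CPM against 60.9, 76.7 and 77.5 CPM, a log2 difference of 1.16 ± 0.19 SE. MRPL20 (ENSG00000242485.6, chromosome 1, 1401909 to 1407293, minus strand) was at 645, 678 and 604 CPM against 285, 281 and 339.9 CPM, a log2 difference of 1.08 ± 0.14 SE. All libraries of LNCaP lay above all of 22Rv1 for both, and the adjusted p-values of edgeR were 2.17e-06 and 1.30e-08. After SEL120-34A, the order of the lines was the same for MRPL30 and MRPL20, with the lowest treated LNCaP library at 70.5 and 407 CPM and the highest treated 22Rv1 library at 25.8 and 399 CPM.

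In the other direction, MRPL43, a large-subunit protein without a bacterial counterpart, was lower in LNCaP, at 80.3, 94.2 and 83.9 CPM against 171, 124 and 189.6 CPM in 22Rv1 (-0.93 ± 0.18 SE, edgeR adjusted p 4.80e-05). MRPL24, with a bacterial counterpart, was at 135, 96.9 and 116 CPM against 212, 179.7 and 197 CPM (-0.73 ± 0.16 SE). MRPS18B was at the values given above against 145, 114 and 99.0 CPM (-0.73 ± 0.20 SE). The lines did not overlap for these 3 genes, nor for MRPL9 (-0.67 ± 0.16 SE). MRPL53 (-0.66 ± 0.28 SE, edgeR adjusted p 0.0462) overlapped between the lines, kept its call in 9 of 21 alternatives (adjusted p 0.00922 to 0.279), and lost it, among others, without LNCaP DMSO replicate 1 (0.279) or 3 (0.0777), 22Rv1 DMSO replicate 1 (0.0977) or 3 (0.131) and 22Rv1 SEL120-34A replicate 1 (0.0553) or 3 (0.0521). It shares 99.2% of its 3′ end with CCDC142, whose row had 9 counts in all libraries.

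**Figure D3:**
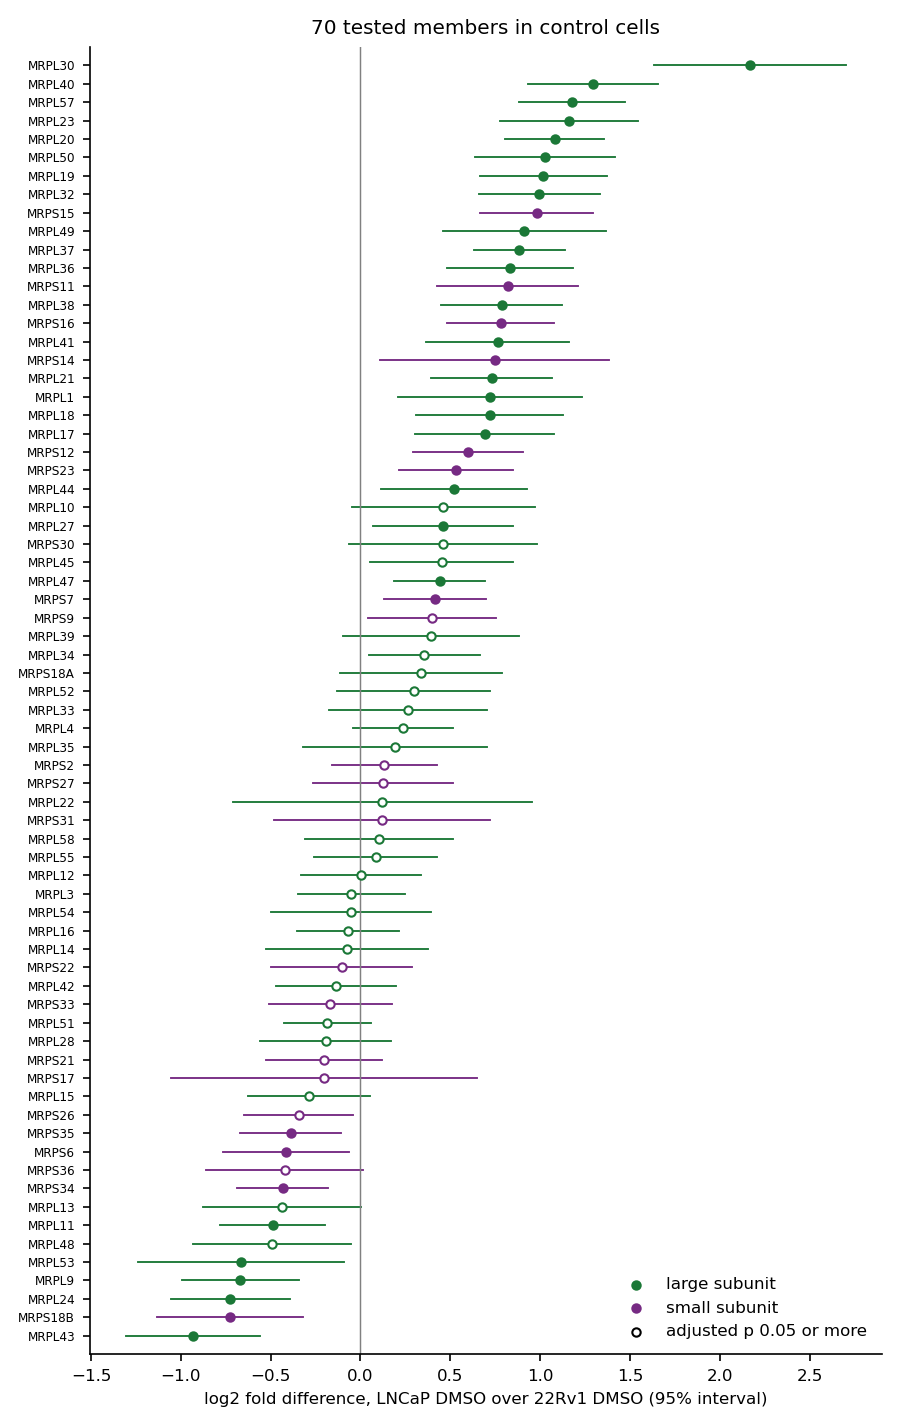
Log2 difference between LNCaP DMSO and 22Rv1 DMSO with its 95% interval (horizontal axis) for the 70 tested members in order of the difference, large subunit in green and small in purple. Filled points passed the threshold. There are 27 of them to the right of 0, led by MRPL30 at 2.17, and 9 to the left, led by MRPL43 at -0.93.

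PC3 had 1 library per arm, so its values have no replicate check and no test was made. With at least 10 counts in both libraries there were 70 members, and their log2 ratio of SEL120-34A over DMSO had a median of 0.19, against 0.05 for 7089 genes with that depth. It was positive for 53 of the 70 and for 56.1% of those genes. A ratio of 2-fold or more upward was seen for 2 members, against 2.09% of genes, and downward for none, against 0.846%. The exact binomial (Clopper-Pearson) 95% interval of the counts lay above 0 for 18 members (25.7%, against 7.35% of those genes) and below 0 for none (against 4.37%). The members have more counts than the median gene and so narrower intervals, and the interval compares these 2 libraries, not the conditions. MRPL53 had 16 counts in DMSO and 27 after SEL120-34A (17.4 and 47.3 CPM, log2 ratio 1.44, interval 0.50 to 2.43). MRPL41, a large-subunit protein without a bacterial counterpart, had 35 and 44 counts (38.1 and 77.2 CPM, 1.02, 0.34 to 1.70). Both are low in counts, and the lower ends of their intervals are well under 2-fold. MRPS23 was at 249 and 314 CPM (0.33, interval 0.04 to 0.62) and MRPL34 at 231 and 254 CPM (0.14, -0.18 to 0.45). Between the controls, the PC3 library was above all 6 of the other lines for 13 tested members (18.6%, against 21.2% of all tested genes) and below all 6 for 22 (31.4%, against 28.3%). Taking the fitted values of the other lines with these ratios, 12 members were positive in all 3 lines and 5 negative in all 3. Shares of all genes with such signs were not counted, so these counts do not show a shared direction.

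**Figure D4:**
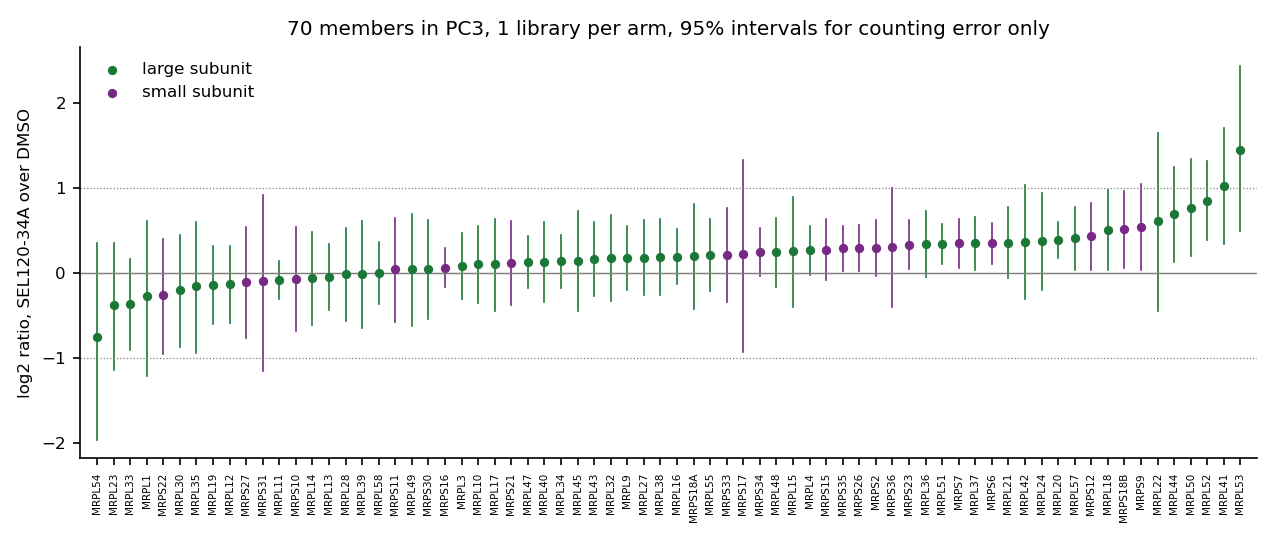
Log2 ratio of the PC3 SEL120-34A library over the PC3 DMSO library (vertical axis) for the 70 members with at least 10 counts in both, in order of the ratio, with exact 95% intervals for counting error. Dotted lines mark 1 and -1, and the points run from -0.75 (MRPL54) to 1.44 (MRPL53).

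As a share of all counts, the members together took about 1% of every library. In LNCaP the share was 1.01%, 1.07% and 1.04% in DMSO and 0.866%, 0.865% and 0.959% after SEL120-34A, lower in all 3 treated libraries. In 22Rv1 it was 0.987%, 0.976% and 1.03% in DMSO and 0.971%, 0.986% and 1.02% after SEL120-34A, which overlap. In PC3 it was 0.968% (exact interval 0.948% to 0.988%) and 1.09% (1.07% to 1.12%). The share taken by genes of the mitochondrial chromosome was 13.9% to 17.3% over the LNCaP controls and 16.5% to 23.3% over the treated libraries. In 22Rv1 it was 7.60% to 9.82% and 9.52% to 13.1%, so the arms overlapped in both lines. Counted only among reads outside the mitochondrial chromosome, the members' share in LNCaP was 1.20% to 1.27% in controls and 1.09% to 1.15% after SEL120-34A, still without overlap. In 22Rv1 it was 1.06% to 1.12% and 1.10% to 1.13%.

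**Figure D5:**
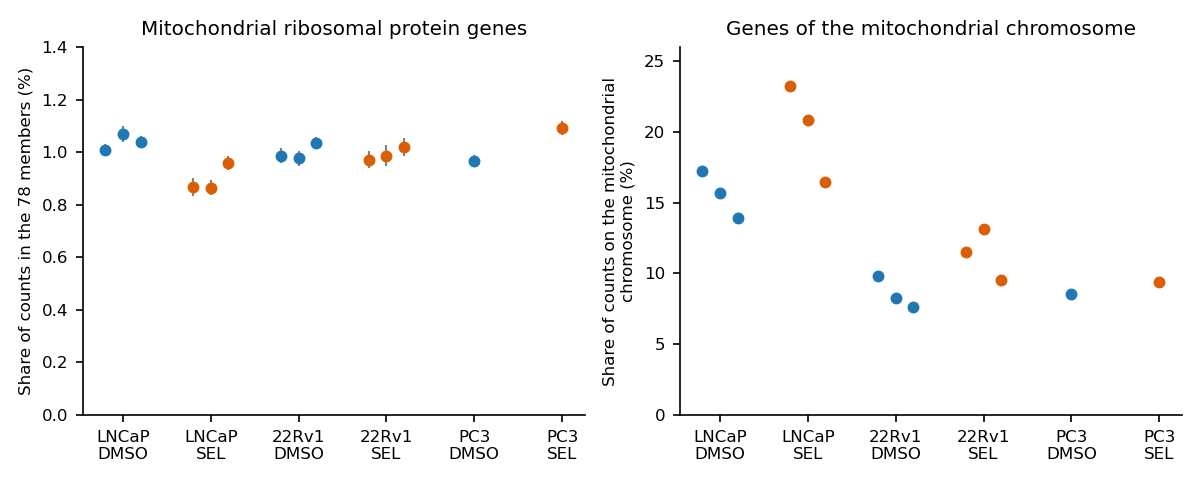
Left, percent of each library's counts in the 78 members, with exact binomial 95% intervals as grey bars. Right, percent in genes of the mitochondrial chromosome, with DMSO in blue and SEL120-34A in orange in both. The members' share is 0.865% to 0.959% in treated LNCaP libraries and 1.01% to 1.07% in their controls.

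The messenger RNAs that the mitochondrial ribosome translates were counted from the mitochondrial chromosome. Of 13 such genes 11 were tested, and after SEL120-34A 6 rose in LNCaP and 9 in 22Rv1 with none called lower, where 1.99% and 4.15% of all genes were called higher. All 11 fitted values were positive in both lines, with medians of 0.57 and 0.69 on the log2 scale. These genes share the mitochondrial chromosome and the same libraries, so their signs and calls are not independent of each other. MT-ND1, a subunit of complex I, was at 9024 to 10051 CPM in LNCaP controls and 12900 to 17818 CPM in treated libraries (0.71 ± 0.13 SE, edgeR adjusted p 0.000473), and at 5997 to 6999 and 8788 to 10893 CPM in 22Rv1 (0.64 ± 0.13 SE, edgeR adjusted p 0.00123). MT-CYB, of complex III, rose by 0.60 in LNCaP (edgeR adjusted p 0.0270) and 0.83 in 22Rv1 (edgeR adjusted p 0.000811). The counts of calls depended on the fit, from 0 to 10 in LNCaP and from 1 to 9 in 22Rv1, the lowest with limma-trend in both, in refits of this list that were chosen after seeing the data. In LNCaP, 10 were called without SEL120-34A replicate 3, 2 without SEL120-34A replicate 1, and 3 each without SEL120-34A replicate 2 or DMSO replicate 3. In 22Rv1, 4 were called without SEL120-34A replicate 2. The ribosome's own RNAs, MT-RNR1 and MT-RNR2, did not pass the threshold in either line (0.17 and 0.39 in LNCaP, -0.06 and 0.17 in 22Rv1). Between the controls, however, counts of both were higher in LNCaP, by 2.05 and 1.95 on the log2 scale. MT-RNR1 was at 4531 to 5396 CPM in LNCaP DMSO and varied from 752 to 1957 CPM in 22Rv1 DMSO. Whether counts of 3′ ends follow the amount of these ribosomal RNAs was not tested.

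The other proteins that work with this ribosome were counted from lists given in full by function. None of the 5 ribosomal proteins with other names, 19 tested assembly and RNA-modification factors, 12 translation factors, 9 aminoacyl-tRNA synthetases, 5 factors of mitochondrial transcription and 5 regulators of nuclear genes for mitochondria was called after SEL120-34A in either line with edgeR. By comparison, edgeR called 2.77% of all genes in LNCaP, and 4.15% higher and 1.55% lower in 22Rv1. In LNCaP, 3 of the 55 genes in these lists had an unadjusted p under 0.05, all lower. That share is close to the 5.63% found lower over all genes, while none was higher, against 7.86%. In 22Rv1 there were 4, 2 higher and 2 lower, smaller shares than the 11.1% and 7.99% over all genes. Among the 5 tested regulators, MYC was at 422 to 565 CPM in LNCaP controls and 456 to 600.4 CPM in treated cells. YY1 had a log2 fold change of -0.04 in LNCaP and 0.03 in 22Rv1, and ESRRA 0.21 and 0.20. PPRC1 and GABPB1, a subunit of GABP, are named here after their values were seen. They were 2 of the 3 lower genes in LNCaP (-1.10 and -0.81, edgeR adjusted p 0.208 and 0.360). Both were low in counts, with means of 13.2 and 12.8, and had 0.01 and -0.30 in 22Rv1. Between the controls, 14 of the 55 were called higher in LNCaP (25.5%, against 24.0% of all genes) and 9 lower (16.4%, against 25.0%). DAP3, a subunit of the small particle, was at 300.04, 304 and 326 CPM in LNCaP DMSO and 102, 112 and 94.2 CPM in 22Rv1 DMSO (1.60 ± 0.16 SE, edgeR adjusted p 3.32e-11), and 4 of the 5 ribosomal proteins with other names were higher in LNCaP. TFAM, which packages mitochondrial DNA, was higher in LNCaP by 1.07, and DHX30, an RNA helicase of ribosome assembly, IARS2, a tRNA synthetase, and MYC had log2 differences of -1.12, -1.19 and -0.75.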

How the data were processed

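RNA was sequenced from 3′ ends in 14 libraries. The authors aligned and counted reads with STARsolo on GRCh38.p13 with GENCODE 43 and deposited whole-number counts for 62703 genes, and log2 CPM values for 9638 genes. Whether molecular identifiers were collapsed is not given in the sources used here. The deposited log2 values were recomputed from the counts with TMM factors and a prior count of 2 to within 4.97e-14, and the levels in CPM use the same factors. No column of sample values was left out.

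The 12 libraries of LNCaP and 22Rv1 were fitted together in 4 groups with edgeR 4.0.16 (limma 3.58.1, R 4.3.3), using TMM factors, the default low-count filter (minimum count 10), which kept 7086 genes, and quasi-likelihood F-tests with 8 residual degrees of freedom. Benjamini-Hochberg adjustment ran over all 7086 genes with a threshold of 0.05. Standard errors are Wald errors of the fit. PC3 had no test. The script was tested on simulated data. There were 23 alternatives, 12 of which left out 1 library, and others used DESeq2 1.42.0 or limma-trend. Tables and figures used Python 3.11.15, scipy 1.17.1, pandas 2.3.3 and matplotlib 3.10.9.

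Named were members past the threshold, the 5 largest fitted rises and falls per line with a mean of at least 20 counts, the 5 largest differences each way between controls, the 5 highest and 5 lowest levels, the MRPS18 paralogs, MRPL12, members past 2-fold in PC3, and examples from the other lists. The members and the lists were chosen with earlier results of these data known. Gene coordinates came from GENCODE 44, where all 78 identifiers matched.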

Additional observations from a re-analysis of the deposited data

How the results depend on the processing

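Under the alternatives, the number of members called in LNCaP was 0 except 1 with at least 10 counts in every library. In 22Rv1 it was 2, and became 0 with library totals in place of TMM, with no filter or at equal depth, and 1 with that stricter filter, with PC3 added, with each line alone, with the DESeq2 Wald test, limma-trend or mitochondrial genes removed. Leaving out 1 library gave 0 to 2 in 22Rv1, 29 to 39 between the controls (36 with all libraries) and 0 for the LNCaP effect and for the difference. The median log2 fold change in LNCaP was -0.23 with library totals and -0.22 with no filter. The median in 22Rv1 was 0.07 with no filter and 0.08 with at least 10 counts in every library, and it turned to -0.0068 with library totals. With at least 10 counts in every library the median of the differences was -0.14. The median between the controls was 0.0663 with library totals and 0.21 at equal depth. Library totals also moved the medians of all genes, by the values given above. Outside the mitochondrial chromosome the difference in the members' share turned from -0.00716 to 0.0269 percentage points in 22Rv1 and was 0.148 in place of 0.125 in PC3. In PC3, 1 member was past 2-fold with library totals, and 1 with at least 20 counts. The cause of these changes was not tested.

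Whether the replicate numbers of the labels pair the samples was not settled. In LNCaP, deviations of same-numbered libraries correlated at 0.17, -0.01 and 0.20, and those of differently numbered libraries at -0.24 to 0.07. In 22Rv1 same-numbered libraries correlated at most at 0.04, and differently numbered ones at -0.09 to 0.08. The main fit used no pairing. With the replicate number as a block, 0 members were called in LNCaP, 3 in 22Rv1 (MRPS21 added, adjusted p 0.0479 with edgeR), 0 for the difference and 36 between the controls. Depth limits members under about 20 counts, and 1 line of each kind and 1 PC3 library per arm limit what the comparisons cover.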

Other observations

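Promoter strings and response can be set side by side for the 63 tested members with a promoter window, as a description. The 26 members with the ETS string had a median log2 fold change of -0.20 in LNCaP and 0.10 in 22Rv1, and the 37 without it had -0.08 and 0.13. For the YY1 string the medians were -0.19 and 0.04 with a match (17 members) and -0.14 and 0.13 without (46 members). Between the controls, the median log2 difference with and without a match was 0.76 and 0.13 for NRF1 (8 and 55 members), 0.11 and 0.40 for ETS, 0.44 and 0.13 for YY1, and 0.44 and 0.13 for the CCAAT string (21 and 42 members).

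MRPS10, a small-subunit protein that did not pass the filter and is named here after its values were seen, was at 69.7 and 66.6 CPM in the PC3 libraries, against 7.04, 13.1 and 4.19 CPM in LNCaP DMSO and 21.6, 20.6 and 17.9 CPM in 22Rv1 DMSO. By mean control level, 36 tested members were highest in LNCaP, 18 in 22Rv1 and 16 in PC3.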
